A study of Homo sapiens with 15 samples.

Results

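Expression of 33 p53 pathway genes was examined in LNCaP cells, a human prostate cancer line that depends on the androgen receptor. The genes were chosen by name, as targets of p53 or close relatives of targets, with earlier results of these data known. An exception is TP53BP2, which encodes a protein that acts on p53. All 33 were present among the 17272 genes of the RNA sequencing table. The list held 4 genes that feed back on p53, 7 genes of growth arrest, 6 sestrins and metabolic genes, 4 DNA repair genes, 9 genes of cell death or survival and 3 genes of autophagy or protein turnover.

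The libraries came from cells kept for 2 days in medium with charcoal-stripped serum and then treated for 22 h. The combination group (5 libraries) received 1 nM R1881, a synthetic androgen, together with 2 µM darolutamide, an androgen receptor inhibitor. The R1881 group (10 libraries) received 1 nM R1881 and DMSO, the vehicle named in its labels, without darolutamide. Polyadenylated RNA was sequenced, and values are the deposited expression values, scaled signals of reads per gene adjusted for the depth of each library. No library from cells without R1881 was compared, so each difference is that of adding darolutamide to an androgen-stimulated culture of 1 cell line. The paper names them biological replicates, but nothing in the labels says whether the replicates were separate cultures. Each p-value rests only on how far single libraries varied.

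p53 is a transcription factor that is kept scarce by the ubiquitin ligase MDM2 and accumulates when DNA is damaged or cells are stressed. It binds paired half-sites near its target genes and raises genes of cell cycle arrest, repair, metabolism and death. Several of these genes also answer to other factors, such as the FOXO proteins.

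The promoter sequences show which of the genes carry a p53 response element next to a transcription start. RefSeq start windows (GRCh38.p14, 250 bases before to 50 bases after each start) were found by symbol for 28 of the 33 genes, in 37 windows. No window was found for FBXO22, GADD45A, PHLDA3, RRM2B and TP53INP1. The p53 response element was searched on both strands as 20 bases without a spacer and with at most 3 mismatches. The C and G at the core of each half-site had to be intact. Such an element occurred in 7 of 37 windows of the p53 pathway genes (18.9%) and in 392 of 35116 windows of all genes (1.12%). The 7 windows belonged to 6 genes, and 2 of the windows held the same MDM2 element. The elements lay at chr12:68808923-68808942 for MDM2, chr6:109009018-109009037 for SESN1, chr11:47214969-47214988 for DDB2, chr15:63157527-63157546 for RPS27L, chr15:88621306-88621325 for AEN and chr17:74872996-74873015 for FDXR. They are shown to be set beside the expression of the same genes, with the C and G at the core of each half-site in capitals. The DDB2 element had 1 mismatch, those of MDM2 and AEN 2 each, and those of SESN1, FDXR and RPS27L 3 each.
MDM2: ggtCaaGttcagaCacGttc
SESN1: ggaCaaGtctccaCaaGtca
DDB2: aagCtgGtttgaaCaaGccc
FDXR: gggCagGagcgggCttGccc
AEN: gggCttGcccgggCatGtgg
RPS27L: ggcCtaGagcagaCaaGccc

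The MDM2 element lay on the forward strand 94 bases before an internal start of the gene, a promoter known to respond to p53. The SESN1 element, in a window on the reverse strand, began 49 bases before an internal start. Both windows are given in full with the element in capitals, beside the window of SUSD6, the gene with the largest rise, in which no element was found. The windows are chr12:68808767-68809066 for MDM2, chr6:109008939-109009238 for SESN1 and chr14:69611346-69611645 for SUSD6.
MDM2: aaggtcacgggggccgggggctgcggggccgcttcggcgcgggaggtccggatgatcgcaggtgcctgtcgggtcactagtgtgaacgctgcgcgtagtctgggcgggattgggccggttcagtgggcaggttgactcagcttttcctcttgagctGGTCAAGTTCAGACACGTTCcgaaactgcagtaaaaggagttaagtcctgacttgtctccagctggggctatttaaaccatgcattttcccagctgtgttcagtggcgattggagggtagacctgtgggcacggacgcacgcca
SESN1: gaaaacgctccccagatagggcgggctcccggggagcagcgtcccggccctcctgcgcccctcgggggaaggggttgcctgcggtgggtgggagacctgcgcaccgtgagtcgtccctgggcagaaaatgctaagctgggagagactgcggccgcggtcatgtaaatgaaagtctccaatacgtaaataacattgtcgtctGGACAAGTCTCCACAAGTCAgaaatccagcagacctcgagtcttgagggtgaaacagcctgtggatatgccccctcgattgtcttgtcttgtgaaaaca
SUSD6: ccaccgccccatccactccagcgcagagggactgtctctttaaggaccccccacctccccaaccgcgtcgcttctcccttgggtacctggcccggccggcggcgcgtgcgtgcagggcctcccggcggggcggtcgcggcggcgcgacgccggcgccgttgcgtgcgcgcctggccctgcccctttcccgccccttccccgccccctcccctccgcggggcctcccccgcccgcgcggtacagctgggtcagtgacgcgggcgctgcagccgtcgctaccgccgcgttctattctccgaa

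Other short motifs were counted in the same windows on both strands. The GC box GGGCGG was found in 30 of 37 windows of the p53 pathway genes (81.1%), against 45.0% of all windows. The androgen receptor half-site AGAACA was found in 1 window, that of XPC, and in 14.8% of all windows. The FOXO core GTAAACA occurred in 2 windows, those of BTG1 and PERP (3.42% of all windows), and the TATA box TATAAA in that of BTG1 (11.5% of all windows). None of these strings of letters is part of another. The expression table gives 1 value per gene and does not separate the starts of a gene.

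The combination libraries held 21870398 to 25317567 reads and the R1881 libraries 15830745 to 24316740. The library numbers of the labels form 3 runs of consecutive numbers, 86 to 90 for the combination and 71 to 75 and 51 to 55 for R1881. The labels do not say what these numbers stand for. No run held both treatments, so the combination and its run cannot be told apart. Mitochondrial genes took 3.12 to 3.94% of the reads in the combination and 2.65 to 3.02% in R1881. Summed luminal prostate markers, which include androgen-responsive genes, were 4641 to 4914 in the combination and 7906 to 9192 in R1881. Of these 9 markers, 6 were lower (66.7%, against 23.7% of all genes) and 2 higher (22.2%, close to the 22.8% of all genes). Summed fibroblast markers (3 of 6 in the table) were 13.5 to 30.6 in the combination and 6.36 to 10.5 in R1881. All 3 were higher (100%, against 22.8% of all genes), and without combination replicate 4, 2 were (against 23.7% of all genes). The 1 immune or endothelial marker in the table was at 3.57 to 4.10 in the combination and 2.08 to 2.84 in R1881. Of 5 basal markers 2 were in the table, with sums of 27.7 to 37.3 in the combination and 25.6 to 34.6 in R1881. All libraries came from 1 cell line, so these sums do not count cells of different types. In bulk RNA, fewer cells expressing a gene and less of its RNA per cell cannot be told apart. The part of these markers in the results was not tested.

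Combination replicate 4 stood apart from the rest of its group. It was the highest or the lowest of the 5 combination libraries in 30 of the 33 p53 pathway genes, against 20 for the next most extreme library, replicate 3. The same share over all genes was not computed. Replicate 4 was lowest in 20 genes whose canonical transcripts had a GC content of 35.1 to 47.5%, and highest in 10 genes of 50.5 to 63.5%. Across the 33 genes, the deviation of replicate 4 from the mean of the other combination libraries had a Spearman correlation of 0.784 with GC content. This correlation is across genes of 1 library, which are not independent. Values without combination replicate 4 are given beside some of the genes that they move. R1881 replicate 6 leaned the same way in several genes, though not in all. It was the lowest R1881 library for MDM2 (114.0), SESN3 (194.5), BTG1 (170.8) and CCNG2 (65.2). It was the highest for FDXR (9.63), PHLDA3 (16.9), SESN2 (25.9) and CDKN1A (93.0), and so set an end of the R1881 range in these genes. In CCNG1 and TP53I3 it was at neither end.

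**Figure D1:**
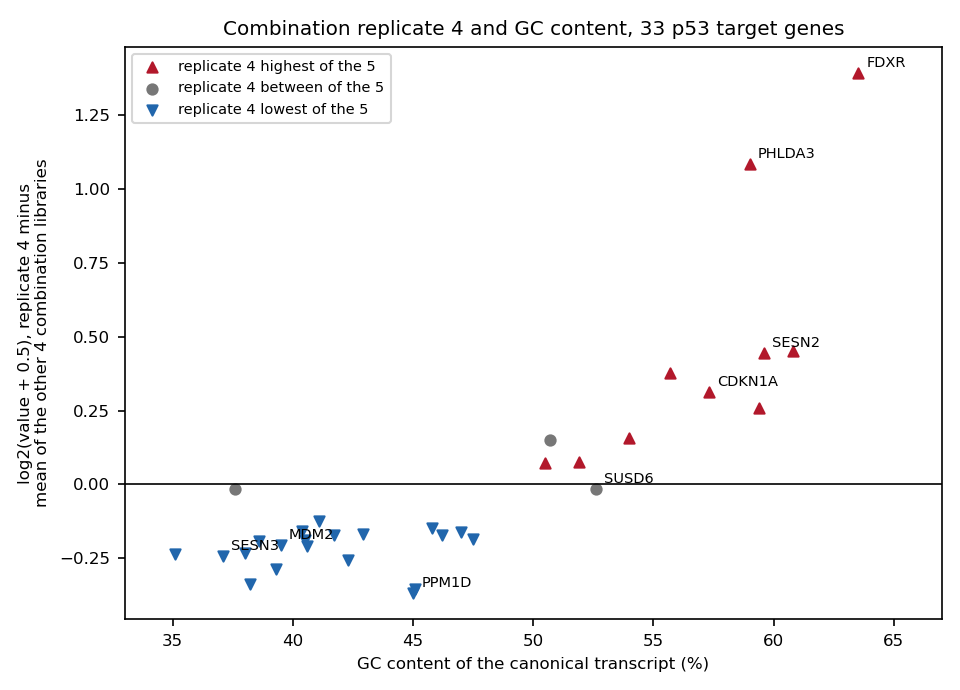
Deviation of combination replicate 4 from the other combination libraries (log2, vertical axis) against the GC content of the canonical transcript (percent, horizontal axis), 1 point per gene for the 33 p53 pathway genes. Genes of 35.1 to 47.5% GC lie below 0, and those of 50.5 to 63.5% lie above 0 except SUSD6, which is close to 0. FDXR and PHLDA3 are at the top.

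Of the 33 p53 pathway genes, 17 rose with darolutamide and 4 fell, while 12 did not pass the test (limma, Benjamini-Hochberg adjusted p under 0.05 over all 17272 genes). The risers made up 51.5% of the list, against 22.8% of all genes tested. The fallers made up 12.1%, against 23.7% of all genes. Since the list was chosen with earlier results of these data known, these shares describe it and do not test it. The median log2 fold change was 0.22 over the list and 0.0004 over all genes. All combination libraries lay above all R1881 libraries in 11 of the 33 genes (33.3%), against 10.8% of all genes, and below them in 2 (6.06%), against 12.6% of all genes. No gene was left out for low values, and the fewest reads in any library were 19, for PLK3.

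SUSD6, BTG2, TP53INP1, CCNG2, SESN3 and SESN1 rose by 0.92 to 1.04 on the log2 scale, and no other p53 pathway gene rose by 0.8 or more. Among the fallers, PPM1D and BTG1 were lower by over 0.5 and PERP and TP53BP2 by less than 0.2. The best known target, CDKN1A, did not pass the test. Values scaled by library totals gave 23 genes higher and 2 lower, with 63.7% of the calls over all genes higher, against 49.1% in the deposited scaling. The difference between treatments was larger than that between the R1881 runs in 26 of 33 genes (78.8%), against 69.1% of all genes.

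**Figure D2:**
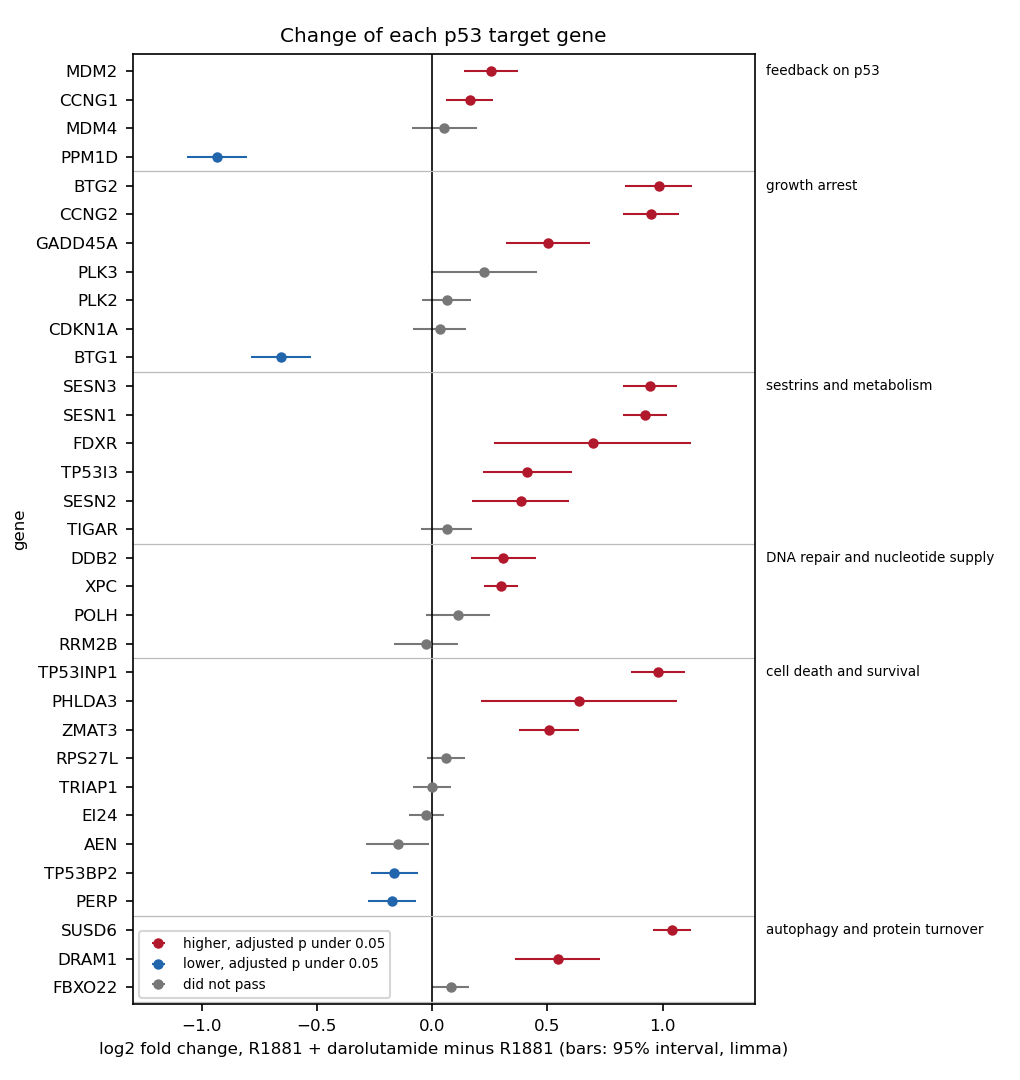
Log2 fold change of each p53 pathway gene, combination over R1881, with its 95% confidence interval, grouped by role. 6 genes lie between 0.92 and 1.04, PPM1D lies at -0.93, and the interval of CDKN1A spans 0.

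**Figure D3:**
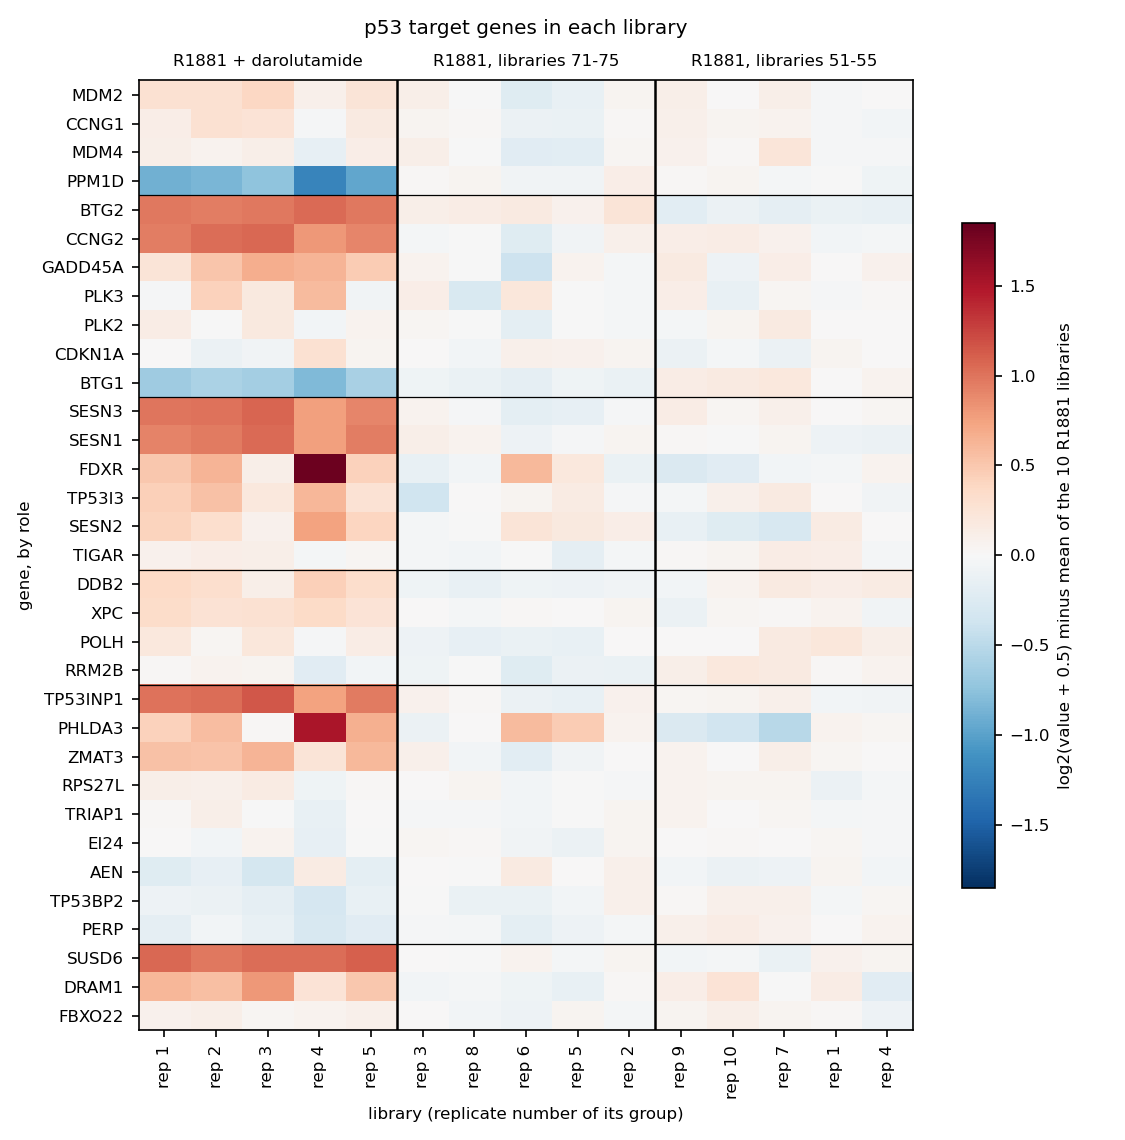
Value of each of the 33 p53 pathway genes in each of the 15 libraries, as the log2 difference from the mean of the 10 R1881 libraries, with the 5 combination libraries to the left of the R1881 libraries. The 11 genes whose combination libraries all lie above R1881 include SUSD6, BTG2, TP53INP1, CCNG2, SESN1 and SESN3, and the 2 whose libraries all lie below are PPM1D and BTG1.

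Genes that restrain p53 moved in different directions. Of the 4 genes that feed back on p53, 2 rose (50%, against 22.8% of all genes) and 1 fell (25%, against 23.7%). MDM2, the ubiquitin ligase that marks p53 for degradation and is itself a p53 target, was at 160.8, 161.0, 173.6, 141.3 and 156.9 in combination replicates 1 to 5, against a lowest value of 114.0, a median of 133.4 and a highest of 143.2 in R1881. Combination replicate 4 lay within the R1881 range and the other combination libraries above it. MDM2 rose by 0.25 (SE 0.055, adjusted p = 0.00102), averaging 158.7 ± 11.6 in the combination and 133.0 ± 9.62 in R1881 (SD, n = 5 and 10, limma). MDM4, a relative of MDM2 that binds p53 and blocks its activity, was at 35.7, 34.5, 35.7, 29.7 and 36.1 in the combination, against 28.5, 33.1 and 38.6 as lowest, median and highest in R1881. The groups overlapped, and the difference of 0.05 had a 95% confidence interval of -0.09 to 0.19 (limma, adjusted p = 0.555). Replicate 4 was the lowest of the combination, and without it MDM4 differed by 0.10 (adjusted p = 0.186). The log2 ratio of MDM2 to MDM4 within a library was 2.19 ± 0.06 in the combination and 1.99 ± 0.05 in R1881, a difference of 0.20 with no overlap between groups (exact permutation test, two-sided, p = 0.000666, the smallest that 3003 permutations allow, adjusted p = 0.00155 over 7 pairs).

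PPM1D, which encodes the phosphatase WIP1 that removes activating phosphates from p53 and ATM, had the largest fall of the list. It was at 24.9, 25.6, 27.5, 19.5 and 23.6 in the combination, against 43.7, 46.6 and 50.5 as lowest, median and highest in R1881. All combination libraries lay below all R1881 libraries, and the mean was 24.2 ± 2.97 in the combination and 46.4 ± 2.16 in R1881 (SD, n = 5 and 10). The fall was -0.93 on the log2 scale (SE 0.061, limma adjusted p = 7.28e-10). CCNG1, cyclin G1, which recruits a phosphatase to MDM2, was at 323.3, 362.6, 354.7, 292.4 and 334.2 in the combination, against 273.6, 302.1 and 316.1 in R1881. Replicate 4 lay within the R1881 range, and the gene rose by 0.16 (SE 0.048, adjusted p = 0.00986 in limma). Against the R1881 libraries 51 to 55 alone, CCNG1 differed by 0.14 with an adjusted p of 0.0751. Per kilobase of the canonical transcript, CCNG1 had the highest level of the list, 136.5 in the combination and 121.7 in R1881, while MDM4 was at 3.42 in the combination and 3.30 in R1881.

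Among the 7 genes of growth arrest, BTG2, CCNG2 and GADD45A rose (42.9%, against 22.8% of all genes) and BTG1 fell (14.3%, against 23.7%), while CDKN1A, PLK2 and PLK3 did not pass the test. CDKN1A encodes p21, the inhibitor of cyclin-dependent kinases through which p53 stops the cell cycle. It was at 87.3, 80.5, 82.9, 105.9 and 90.0 in the combination, against 80.4, 87.4 and 93.0 as lowest, median and highest in R1881. Only replicate 4 lay outside the R1881 range. The difference was 0.03, with a 95% confidence interval of -0.08 to 0.15 (limma adjusted p = 0.673). Without replicate 4 it was -0.03.

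BTG1 and BTG2 are related antiproliferative proteins that promote removal of mRNA tails, and they moved in opposite directions. BTG2 was at 90.0, 88.5, 89.9, 94.4 and 90.2 in the combination, against 39.8, 45.2 and 53.7 as lowest, median and highest in R1881. BTG1 was at 121.4, 126.7, 123.9, 108.9 and 126.0 in the combination, against 170.8, 186.9 and 218.2 in R1881. Neither gene's groups overlapped. BTG2 rose by 0.98 (SE 0.069, adjusted p = 1.66e-09) and BTG1 fell by 0.66 on the log2 scale (SE 0.061, adjusted p = 7.56e-08, both limma). The log2 ratio of BTG1 to BTG2 was 0.42 ± 0.12 in the combination and 2.06 ± 0.28 in R1881, a difference of -1.64 (exact permutation p = 0.000666, adjusted p = 0.00155). Of the 7 pairs of relatives compared, this pair had the largest difference.

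CCNG2, cyclin G2, is an atypical cyclin that slows the cell cycle and is known as a FOXO target. It was at 147.4, 157.7, 161.0, 133.7 and 143.9 in the combination, against 65.2, 75.5 and 84.2 as lowest, median and highest in R1881. The groups lay far apart, and CCNG2 rose by 0.95 (SE 0.057, limma adjusted p = 2.15e-10). Its relative CCNG1 rose less, so that the log2 ratio of CCNG2 to CCNG1 was -1.16 ± 0.04 in the combination and -1.95 ± 0.06 in R1881. That difference of 0.79 was tested directly (exact permutation p = 0.000666, adjusted p = 0.00155), without overlap between groups.

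GADD45A, a stress-induced protein that acts in growth arrest and repair, was at 8.10, 9.83, 11.0, 10.7 and 9.53 in the combination, against 5.09, 6.95 and 7.63 as lowest, median and highest in R1881, without overlap. It rose by 0.50 (SE 0.086, limma adjusted p = 0.000111). The polo-like kinases PLK2 and PLK3 are stress-responsive kinases. PLK2 was at 57.6, 52.1, 59.2, 50.4 and 54.7 in the combination, against 46.0, 52.3 and 59.1 in R1881. PLK3 was at 1.32, 1.98, 1.58, 2.26 and 1.27 in the combination, against 1.02, 1.34 and 1.62 in R1881. Both overlapped between groups, with log2 fold changes of 0.06 (95% confidence interval -0.04 to 0.17, adjusted p = 0.325) for PLK2 and 0.22 (-0.01 to 0.46, adjusted p = 0.104) for PLK3 in limma. Their log2 ratio differed by -0.16 (exact permutation p = 0.283, adjusted p = 0.330). Without replicate 4, PLK3 differed by 0.13 (limma adjusted p = 0.320) and the ratio by -0.04. Without replicate 5, PLK3 differed by 0.30 and passed (limma adjusted p = 0.0436).

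The sestrins and metabolic genes held 5 risers among 6 (83.3%, against 22.8% of all genes), and SESN1 and SESN3 rose most. Sestrins are stress proteins that restrain the growth kinase mTORC1 and protect from oxidants. SESN1 was at 401.6, 414.2, 440.8, 360.6 and 411.4 in the combination, against 197.7, 215.0 and 230.0 as lowest, median and highest in R1881. SESN3, which is known as a FOXO target, was at 437.9, 441.8, 463.4, 370.5 and 411.2 in the combination, against 194.5, 223.1 and 240.8 in R1881. In both genes even the lowest combination library lay well above the highest R1881 library. SESN1 rose by 0.92 (SE 0.046, adjusted p = 1.27e-11) and SESN3 by 0.95 (SE 0.056, adjusted p = 1.49e-10, both limma).

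SESN2, the family member best known from amino acid and endoplasmic reticulum stress, was at 29.2, 27.1, 23.1, 36.9 and 28.9 in the combination, against 17.7, 22.0 and 25.9 as lowest, median and highest in R1881. Replicate 3 lay within the R1881 range. SESN2 rose by 0.38 (SE 0.1, limma adjusted p = 0.00424), and against the R1881 libraries 71 to 75 alone it differed by 0.29 (adjusted p = 0.056). The log2 ratio of SESN1 to SESN2 was 3.79 ± 0.34 in the combination and 3.26 ± 0.22 in R1881 (difference 0.54, exact permutation p = 0.00599, adjusted p = 0.0103). That of SESN3 to SESN2 was 3.86 ± 0.36 in the combination and 3.30 ± 0.27 in R1881 (difference 0.56, exact permutation p = 0.00733, adjusted p = 0.0103). Neither ratio passed against the R1881 libraries 51 to 55 alone, with adjusted p of 0.0778 for SESN1 to SESN2 and 0.0926 for SESN3 to SESN2 from the same exact test. Without combination replicate 4, SESN2 rose by 0.30 (limma adjusted p = 0.0108), and the ratios of SESN1 and SESN3 to SESN2 differed by 0.67 and 0.70. The log2 ratio of SESN1 to SESN3 was -0.07 ± 0.05 in the combination and -0.04 ± 0.10 in R1881 (difference -0.02, exact permutation p = 0.639, adjusted p = 0.639). Against the R1881 libraries 71 to 75 alone this ratio of SESN1 to SESN3 differed by -0.11 and passed (exact test, adjusted p = 0.0139), and against libraries 51 to 55 alone it differed by 0.06 and did not (exact test, adjusted p = 0.0778).

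**Figure D4:**
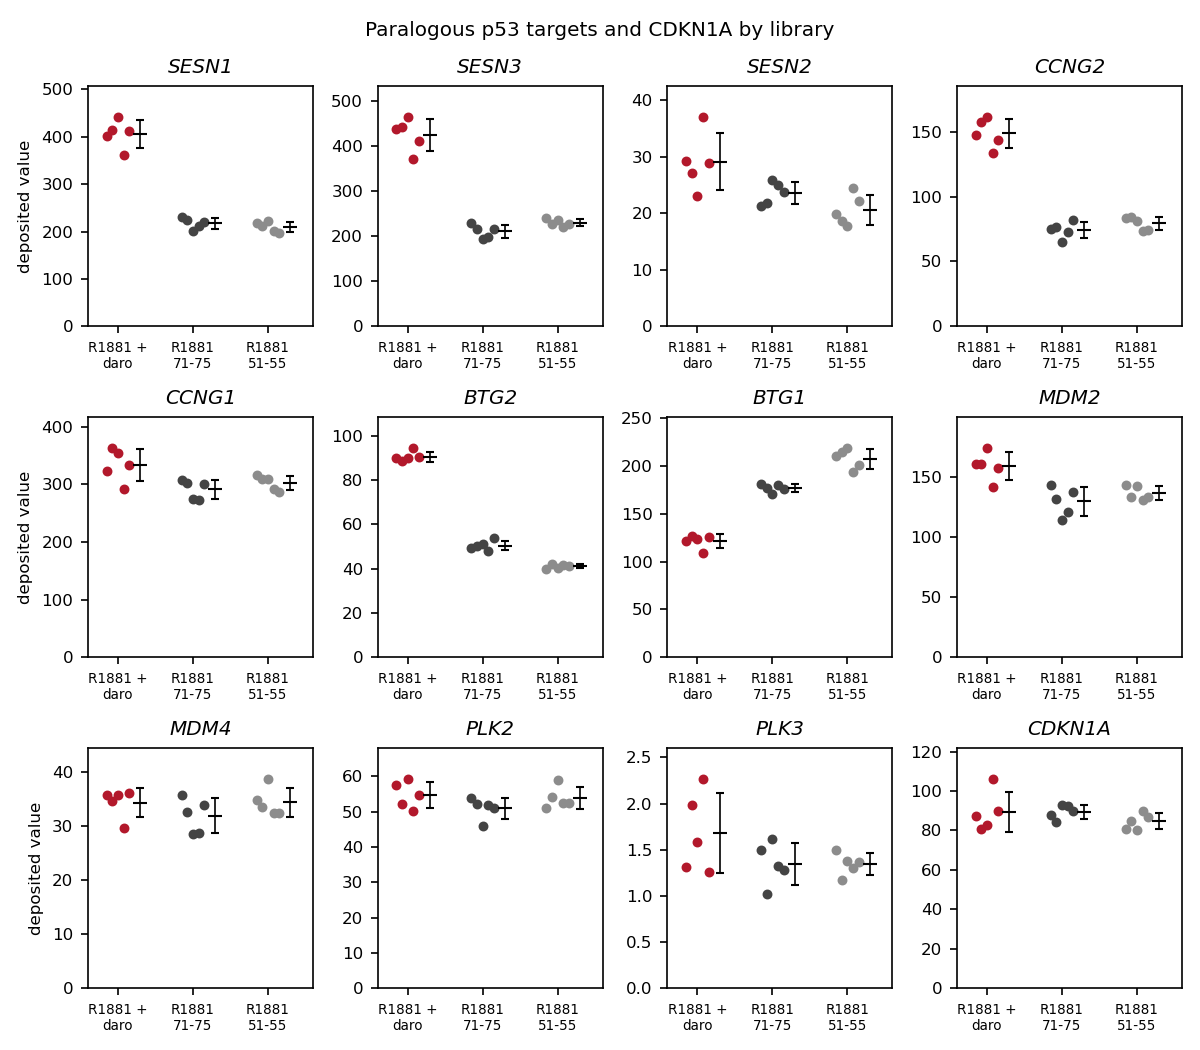
Deposited value of each gene of the pairs of relatives, and of CDKN1A, in each library (vertical axes from 0), with the 5 combination libraries left of R1881 libraries 71 to 75 and 51 to 55, and a bar for mean and SD. SESN1, SESN3, CCNG2 and BTG2 are higher and BTG1 lower in all combination libraries than in all R1881 libraries, while MDM4, PLK2, PLK3 and CDKN1A overlap.

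FDXR, a mitochondrial reductase that passes electrons to ferredoxin, was at 9.02, 9.83, 6.73, 23.0 and 8.54 in the combination, against 5.07, 5.98 and 9.63 as lowest, median and highest in R1881. Replicate 4 was higher than any other library, and the other combination libraries lay partly within the R1881 range. FDXR rose by 0.70 (SE 0.204, limma adjusted p = 0.00922), and by 0.42 without replicate 4 (adjusted p = 0.0106). Against the R1881 libraries 71 to 75 alone its adjusted p was 0.113. TP53I3, a quinone reductase linked to reactive oxygen, rose by 0.41 (limma adjusted p = 0.00114) without overlap, at 4.49 to 6.18 in the combination and 2.86 to 4.37 in R1881. Its exons overlap on the opposite strand with FAM228B, which was higher by 0.44 (adjusted p = 0.00144), and reads of both cannot be told apart if strand was not used in the counting. TIGAR, a phosphatase that lowers glycolytic flux, did not pass (0.06, adjusted p = 0.350).

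Of the 4 DNA repair genes, both damage sensors of nucleotide excision repair rose (50%, against 22.8% of all genes) and none fell (against 23.7%). XPC, which recognises distorted DNA, was at 62.6 to 67.4 in the combination and 48.8 to 54.8 in R1881, and rose by 0.30 without overlap (limma adjusted p = 1.66e-06). DDB2, which recognises ultraviolet lesions in chromatin, rose by 0.31 (adjusted p = 0.000941), at 13.4 to 16.9 in the combination and 11.3 to 13.9 in R1881. POLH, the polymerase that copies past ultraviolet lesions, and RRM2B, a ribonucleotide reductase subunit, did not pass. Their log2 fold changes were 0.11 (95% confidence interval -0.03 to 0.25, adjusted p = 0.181) for POLH and -0.03 (-0.16 to 0.11, adjusted p = 0.777) for RRM2B in limma. An opposite-strand neighbour that shares exons with POLH, GTPBP2, was lower by 0.25 on the log2 scale.

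Genes of cell death and survival held 3 risers (33.3%) and 2 fallers (22.2%) among 9, against 22.8% and 23.7% of all genes. TP53INP1, a stress protein that promotes p53 activity and autophagy, was at 379.0, 385.9, 416.9, 316.2 and 364.6 in the combination, against 171.1, 192.1 and 199.6 as lowest, median and highest in R1881. The groups lay far apart, and TP53INP1 rose by 0.98 (SE 0.055, limma adjusted p = 7.20e-11). Its exons overlap on the opposite strand with NDUFAF6, which was higher by 0.26 (adjusted p = 0.00332). ZMAT3, an RNA-binding protein of the p53 response, was at 46.6, 45.8, 49.3, 37.5 and 48.3 in the combination, against 27.6, 31.9 and 34.1 in R1881. It rose by 0.51 without overlap (SE 0.061, limma adjusted p = 2.01e-06).

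PHLDA3, which competes with the kinase AKT for membrane lipids, was at 15, 16.8, 11.3, 32.4 and 17.7 in the combination, against 7.61, 11.3 and 16.9 as lowest, median and highest in R1881. The groups overlapped and replicate 4 was again far above the rest. PHLDA3 rose by 0.64 (SE 0.202, limma adjusted p = 0.0152), by 0.42 without replicate 4 (adjusted p = 0.0392), and against the R1881 libraries 71 to 75 alone its adjusted p was 0.185. PERP, a desmosome protein that p53 induces in apoptosis, fell by 0.17 on the log2 scale (adjusted p = 0.00804). TP53BP2, which encodes ASPP2, a protein that directs p53 to apoptosis genes, fell by 0.16 on the log2 scale (adjusted p = 0.00887, both limma). Both overlapped between groups, and both lost the call when values were scaled by library totals, with adjusted p of 0.101 for PERP and 0.119 for TP53BP2. The calls were also lost against the R1881 libraries 71 to 75 alone, with adjusted p of 0.148 for PERP and 0.115 for TP53BP2.

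The remaining genes of this role did not pass the test. AEN, an apoptosis nuclease, differed by -0.15 on the log2 scale (limma adjusted p = 0.0681), close in size to PERP and TP53BP2. AEN passed as lower without replicate 4 (-0.22, adjusted p = 0.0012) and without replicates 3 and 4 (-0.19, adjusted p = 0.00925). It also passed with voom (-0.18, adjusted p = 0.00126) and with the GC correction (-0.11, adjusted p = 0.00438), all limma. EI24, an endoplasmic reticulum protein linked to apoptosis and autophagy, was at -0.02 on that scale (95% confidence interval -0.10 to 0.05, adjusted p = 0.609). TRIAP1, a mitochondrial lipid transfer protein that protects from apoptosis, was at -0.0013 (-0.08 to 0.08, adjusted p = 0.982). RPS27L, a ribosomal protein relative of RPS27, was at 0.06 (-0.02 to 0.14, adjusted p = 0.241), and reads shared with RPS27 could be counted with either gene. RPS27L passed without replicate 4 (0.09, adjusted p = 0.0431), with voom (0.09, adjusted p = 0.0217), with the GC correction (0.07, adjusted p = 0.021) and with library totals (0.13, adjusted p = 0.0137), all limma. Of the 6 genes with a p53 response element in a window, MDM2, SESN1, DDB2 and FDXR rose and AEN and RPS27L did not pass. In the whole list 51.5% rose, and among all genes 22.8%. Only 28 of the 33 genes had a window, and sites outside the windows, with a spacer or with a changed core were not searched. A link between the element and the change was not tested.

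In the group of autophagy and protein turnover, SUSD6 and DRAM1 rose (66.7%, against 22.8% of all genes) and none fell (against 23.7%). SUSD6, a membrane protein also known as DRAGO that is induced by p53 and restrains growth, was at 72.5, 68.2, 70.7, 70.6 and 74.4 in the combination, against 31.7, 34.2 and 36.3 as lowest, median and highest in R1881. The lowest combination library was far above the highest R1881 library. SUSD6 rose by 1.04 (SE 0.039, limma adjusted p = 2.01e-13), the largest change of the list, averaging 71.3 ± 2.33 in the combination and 34.4 ± 1.52 in R1881 (SD, n = 5 and 10). DRAM1, a lysosomal membrane protein that promotes autophagy, was at 12.1, 11.5, 13.8, 9.34 and 11.1 in the combination, against 6.57, 7.59 and 9.32 in R1881. Its groups did not overlap, though replicate 4 lay just above the highest R1881 library, and it rose by 0.54 (SE 0.087, limma adjusted p = 5.02e-05). FBXO22, a ubiquitin ligase subunit, did not pass (0.08, 95% confidence interval -0.0018 to 0.16, adjusted p = 0.102), and its opposite-strand neighbour NRG4 had a log2 fold change of -0.04.

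The 2 runs of library numbers within R1881 give the size of a difference between such runs without a change in treatment. Between libraries 71 to 75 and 51 to 55, 2 of the 33 p53 pathway genes passed the test, BTG1 and BTG2, against 1.1% of all genes. BTG1 averaged 176.8 in libraries 71 to 75 and 207.2 in libraries 51 to 55 (log2 difference -0.23, limma adjusted p = 0.0318). BTG2 averaged 50.5 in libraries 71 to 75 and 41.2 in libraries 51 to 55 (0.29, limma adjusted p = 0.00186). Both run differences had the sign of the combination's change and were smaller than it. With single libraries left out the count of p53 pathway genes that passed was 1 to 4, and the share of all genes was not computed for these fits.

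Of 23 regulators of p53 in the table outside the list (24 listed), 5 were higher (21.7%, close to the 22.8% of all genes), 10 lower (43.5%, against 23.7% of all genes) and 8 did not pass, with a median of -0.09. Without combination replicate 4, 3 were higher and 10 lower (all genes: 23.7% higher and 27.7% lower). Against R1881 libraries 71 to 75 alone there were 3 and 8 (all genes: 19.5% and 19.1%). Against libraries 51 to 55 alone there were 2 and 8 (all genes: 19.4% and 22.4%). This list and the lists that follow were also chosen with earlier results of these data known. ATM, the kinase that signals DNA breaks to p53, rose by 0.46 (limma adjusted p = 2.24e-06), and RPL5, a ribosomal protein that binds MDM2, by 0.22 (adjusted p = 3.16e-05). HIPK2, a kinase that phosphorylates p53, fell by 0.59 (adjusted p = 4.51e-10), and KMT5A, a methyltransferase of histone H4 and p53 listed under its older symbol, fell by 0.56 (adjusted p = 4.94e-11), both on the log2 scale.

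Of 11 target genes of p53 in apoptosis in the table (12 listed), 4 were higher (36.4%, against 22.8% of all genes), 3 lower (27.3%, close to the 23.7% of all genes) and 4 did not pass. Their median of 0.17 was 0.02 without combination replicate 4, with 3 higher and 3 lower (all genes: 23.7% higher and 27.7% lower). The death receptor gene FAS rose by 0.58 (limma adjusted p = 6.96e-06) and the decoy receptor gene TNFRSF10D by 0.52 (adjusted p = 6.62e-10). The death receptor gene TNFRSF10B fell by 0.96 on the log2 scale (adjusted p = 2.94e-14), at 140.3 to 150.5 in the combination and 267.1 to 298.7 in R1881. PMAIP1, which encodes the BCL2 antagonist NOXA, fell by 0.33 on the log2 scale (adjusted p = 0.000243).

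Among 33 further p53 targets in the table (37 listed), 15 were higher (45.5%, against 22.8% of all genes), 3 lower (9.09%, against 23.7%) and 15 did not pass, with a median of 0.16. Without combination replicate 4, 15 were higher and 6 lower (all genes: 23.7% higher and 27.7% lower), with a median of 0.10. The growth factor gene TGFA rose by 0.70 and CYFIP2, a regulator of actin assembly, by 0.56, while TSKU fell by 0.52 and the antiproliferative gene TOB1 by 0.15 on the log2 scale. All 20 listed cell cycle genes that p53 is known to repress through p21 and the DREAM complex were in the table, and all 20 were lower in the combination, with a median of -0.55 (limma), against 23.7% of all genes. Of the same 20 genes, 12 were also lower in R1881 libraries 71 to 75 than in 51 to 55, against 1.1% of all genes called between these runs, with a median run difference of -0.27. Against libraries 71 to 75 alone, 19 of the 20 were lower, with a median of -0.42 (all genes: 19.1% lower). Against libraries 51 to 55 alone all 20 were, with a median of -0.68 (all genes: 22.4% lower). The combination and its own run cannot be told apart for these genes. MKI67, a marker of dividing cells, fell by 0.79 and BIRC5, which encodes survivin, by 0.58 on the log2 scale. CDKN1A, which encodes p21, did not pass in the same libraries.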

How the data were processed

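The deposited expression table of LNCaP cells was analysed, with 5 libraries of R1881 and darolutamide and 10 of R1881. Groups and concentrations follow the sample labels, which differ from the methods of the paper in group sizes and R1881 concentration. The authors aligned single-end reads of 50 bases to GRCh38 with STAR and counted them with featureCounts. The versions of both, the annotation and the use of strand in counting are not given in the sources used here. The deposited unit is a scaled signal. In each library the values were whole reads divided by 1 factor (100% whole within 0.001 reads), and 1 read was worth 0.0399 to 0.0677. The library totals were 15830745 to 25317567 reads, which limit the precision of low genes.

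limma (version 3.58.1) was fitted to log2(value + 0.5) of all 17272 genes without a filter, with Benjamini-Hochberg adjustment over all genes and a threshold of 0.05. Fold changes are on this scale and understate changes of low genes. It was also run on simulated counts in which few genes changed and no run or GC difference was set. That run therefore does not check the calls made here. Paralogue ratios used exact two-sided permutation tests, adjusted over 7 pairs. Transcript length, GC content and overlaps came from GENCODE 44, for the canonical transcript, and promoter windows from RefSeq. Of the symbols listed, COP1 and KMT5A were matched by hand to RFWD2 and SETD8. Values in every library are given for members past the test with a log2 fold change of at least 0.5 in size, for MDM2 and CDKN1A and for paralogue pairs. From each other list, the 2 genes of smallest p in each direction were named, and 1 further gene of the naming rule is not reported here. The members and lists were chosen with earlier results of these data known. Alternatives were other pseudocounts, a minimum mean of 1, library totals, edgeR (version 4.0.16), DESeq2 (version 1.42.0), voom, single R1881 runs, a replicate block and left-out libraries.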

Additional observations from a re-analysis of the deposited data

Results flagged for a closer look

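Outlying values were sought in the 66 groups of values that the 33 p53 pathway genes form over both treatments, and 5 were found in which 1 library lay far from the rest of its group by Dixon's criterion. Chance gives about 1 in 20 groups. In combination replicate 4, FDXR was at 23.0 (the other combination libraries 6.73 to 9.83) and MDM4 at 29.7 (34.5 to 36.1). In R1881 replicate 6, FDXR was at 9.63 (the other R1881 libraries 5.07 to 7.17) and GADD45A at 5.09 (6.31 to 7.63). In R1881 replicate 3, TP53I3 was at 2.86 (3.66 to 4.37).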

How the results depend on the processing

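Of 27 alternatives, the direction and the call held in all 27 for 15 of 21 called genes: MDM2, PPM1D, BTG1, BTG2, GADD45A, CCNG2, SESN1, SESN3, TP53I3, DDB2, XPC, TP53INP1, ZMAT3, DRAM1 and SUSD6. Scaling by library totals gave 23 genes higher and 2 lower, moved the median of all genes to 0.07 and made 63.7% of all calls higher, against 49.1% as reported. The R1881 libraries 71 to 75 alone gave 15 higher and 2 lower (all genes: 19.5% and 19.1%). Libraries 51 to 55 alone gave 16 and 4 (all genes: 19.4% and 22.4%), with 3 paralogue pairs past the test. edgeR on the recovered reads gave 17 higher and 4 lower members (4106 and 3943 of all genes) and 1 gene between the R1881 runs. A GC correction, chosen after seeing the data, gave 18 and 5 (4230 and 4438 of 13955 genes with a GC value). Leaving out combination replicates 3 and 4 together gave 17 and 4 (3641 and 4053 of all genes). With 1 library left out, the counts were 17 to 18 higher and 4 to 5 lower (3495 to 4096 and 3723 to 4781 of all genes). These fits gave 5 paralogue pairs and 1 to 4 genes between runs. The share of all genes between runs was not computed for edgeR or for left-out libraries. Of the 12 genes that did not pass, 7 passed under at least 1 alternative: AEN, FBXO22, PLK2, PLK3, POLH, RPS27L and TIGAR. The cause of these changes was not tested.

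The replicate block gave 16 higher and 4 lower (3077 and 3165 of all genes), and PHLDA3 lost its call (adjusted p = 0.0577 in limma). Replicate numbers did not pair the libraries: deviations of same-numbered libraries had correlations of -0.126 to 0.287, and 0 of 5 matched their own number best. A paired exact test of the ratios was not run, since 5 pairs cannot go below 0.0625.

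Genes near 0 that did not pass turned sign. With library totals RRM2B was at 0.0451, EI24 at 0.0466 and TRIAP1 at 0.0696. With voom RRM2B was at 0.0094 and TRIAP1 at 0.0414. With libraries 71 to 75 alone RRM2B was at 0.084, TRIAP1 at 0.00934 and CDKN1A at -0.00748, and with libraries 51 to 55 alone MDM4 was at -0.000947 and the ratio of SESN1 to SESN3 at 0.0649. With the replicate block RRM2B was at 0.0185, TRIAP1 at 0.00503 and CDKN1A at -0.00747. Without replicates 3 and 4, RRM2B was at 0.0114, TRIAP1 at 0.0436 and CDKN1A at -0.0179. TRIAP1 was at 0.00755 in edgeR, 0.0141 in DESeq2 and 0.00761 after GC correction. Without combination replicate 4, CDKN1A was at -0.0305, RRM2B at 0.021, EI24 at 0.00728 and TRIAP1 at 0.0324. With single libraries left out, the ranges were -0.0305 to 0.0676 for CDKN1A, -0.052 to 0.021 for RRM2B, -0.0482 to 0.00728 for EI24 and -0.0284 to 0.0324 for TRIAP1.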

Other observations

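Factors that share targets with p53 were followed in lists of their own. Of 15 FOXO factors and targets in the table (16 listed), 7 were higher (46.7%, against 22.8% of all genes), 5 lower (33.3%, against 23.7%) and 3 did not pass (limma), with a median of 0.09. PIK3IP1, an inhibitor of PI3 kinase, rose by 1.16 and RBL2, a pocket protein of the DREAM complex, by 0.49. FOXO3 itself fell by 0.44 and IRS2, an insulin receptor substrate, by 0.87 on the log2 scale.

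A list of 12 genes held the stress factor ATF4 itself and its targets. Of these 12, 1 was higher (8.33%, against 22.8% of all genes), 2 were lower (16.7%, against 23.7%) and 9 did not pass, with a median of -0.05. Without combination replicate 4, 1 was higher and 5 were lower (all genes: 23.7% higher and 27.7% lower). DDIT3, which encodes CHOP, rose by 0.48, while VLDLR fell by 1.22 and CHAC1, a glutathione-degrading enzyme, by 0.41 on the log2 scale.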
